A study of Mus musculus with 16 samples.

Results

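The genes described here are 10 genes of the mammalian response to stress in the endoplasmic reticulum (ER): Hspa5, Ddit3, Atf4, Xbp1, Herpud1, Dnajb9, Sdf2l1, Trib3, Chac1 and Nupr1. They were listed by name with earlier results of these data known, the rule itself using no measured value, and each was matched to 1 of the 36528 NCBI Gene IDs in the deposited tables. All 10 passed the filter on low counts and were among the 18072 genes tested. The study sequenced RNA of cells sorted by GFP from mouse intestinal tumours of 2 genotypes, AKVPL and AKVPSL, with 4 libraries for each combination of genotype and sort and 16 libraries in all. The series' design text names the sorted cells by Lgr5, a receptor of intestinal stem cells, so GFP+ is read here as the Lgr5-positive sort.

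Between the genotypes, 6 of the 10 genes were higher and 3 lower in AKVPSL GFP- cells than in their AKVPL counterparts, where 32% and 30.7% of all tested genes were called higher and lower. In GFP+ cells 5 were higher and 1 lower, beside 24.9% and 28.1% of all genes, so the number lower in GFP- cells is near that of all genes. Atf4, Chac1, Nupr1 and Herpud1 were higher in AKVPSL in both sorts, by 1.51- to 3.54-fold, while Hspa5 was lower in both, by 1.37- and 1.48-fold. Between the sorts, Hspa5, Ddit3, Sdf2l1 and Chac1 were lower in GFP+ than in GFP- cells in both genotypes. Xbp1, Herpud1 and Nupr1 differed between the genotypes in how they followed the sort.

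The labels do not say what the genotype letters mean. In the published tumour model that carries these names they stand for altered tumour genes that include Apc and Trp53, a Cre driven by the villin promoter (V), loss of Smad4 (S) and a diphtheria toxin receptor and GFP cassette in Lgr5 (L). Under that reading the tumour cells of all 4 groups share every allele but the Smad4 change, and the Cre acts in intestinal epithelium only. The titles speak of AKVPL or AKVPSL derived tumours. They do not say whether other cells in the tumours, such as leukocytes or fibroblasts, carry these alleles. The sources used here give no treatment, time point, age or number of tumours or lines per genotype, so genotype and line cannot be told apart. The labels do not state that the 4 libraries of a group came from separate animals, so p-values reflect only the scatter of these libraries, some of which may be technical. All titles name the colon, but the tissue field reads small intestine for most libraries.

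ER stress arises when unfolded proteins accumulate in the ER lumen. Sensors in the ER membrane then act: IRE1 (Ern1) splices the mRNA of Xbp1 into the form that encodes an active transcription factor, ATF6 is cut in the Golgi to release another, and PERK (Eif2ak3) phosphorylates the initiation factor eIF2 alpha. Phosphorylated eIF2 alpha lowers most translation and raises that of the transcription factor ATF4, which other kinases that sense amino acid shortage, haem or viral RNA can also trigger. XBP1 and ATF6 raise chaperones and components of ER-associated degradation, while ATF4 raises amino acid transport, amino acid synthesis and the factor CHOP (Ddit3). In the intestine the response is best known for goblet and Paneth cells, which secrete large amounts of protein. Counts per gene measure total mRNA, so they show neither Xbp1 splicing nor the translation of Atf4.

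Of the promoters, 4 stretches are given because they hold letters of a textbook element in the bases before the start of the gene. They were read from the RefSeq promoter table of build GRCm38.p6, which holds 250 bases before and 50 after the start of each gene and has a window for all 10 genes. Capitals mark the matches, on either strand, to the ER stress element ERSE (CCAAT and CCACG with 9 bases between them), the shorter ERSE-II (ATTGG and CCACG with 1 base between them), the core TGACGTG of the element bound by ATF6 and XBP1, and the core TGATGNAA of the composite element bound by ATF4 with C/EBP proteins such as CHOP. The Hspa5 stretch lies at chr2:34771918-34772058 on the + strand, the Herpud1 stretch at chr8:94386302-94386402 on the + strand, the Chac1 stretch at chr2:119351034-119351071 on the + strand and the Nupr1 stretch at chr7:126625558-126625595 on the - strand.
Hspa5: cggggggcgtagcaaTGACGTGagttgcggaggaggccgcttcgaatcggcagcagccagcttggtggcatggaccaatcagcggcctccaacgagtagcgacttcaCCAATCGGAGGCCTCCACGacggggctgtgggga
Herpud1: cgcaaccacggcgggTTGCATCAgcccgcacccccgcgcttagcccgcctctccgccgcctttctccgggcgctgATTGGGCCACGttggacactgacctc
Chac1: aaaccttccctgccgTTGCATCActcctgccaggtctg
Nupr1: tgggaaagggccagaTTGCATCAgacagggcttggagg
In Hspa5 the TGACGTG core lay 157 to 151 bases and the ERSE 65 to 47 bases before the start. Herpud1 held an ERSE-II 52 to 42 bases and a composite core 112 to 105 bases before the start, so its window carried letters of both kinds. The composite core stood 193 to 186 bases before the start of Chac1 and 110 to 103 bases before that of Nupr1, in each case as TTGCATCA, a match to the reverse strand. In Trib3 a composite core lay 15 to 22 bases past the start. The composite core was thus found in 4 of the 10 windows, or 3 of 10 when only the 250 bases before the start were searched. The other 5 windows (Ddit3, Atf4, Xbp1, Dnajb9 and Sdf2l1) matched none of the 4 patterns.
Of 32851 windows in the table, 3.97% held the composite core, 2.01% the TGACGTG core, 0.119% the ERSE and 0.0365% the ERSE-II. A match is a description of letters and not a measured binding site. Among genes outside the 10, those with a composite core were higher in AKVPSL GFP- cells in 105 of 410 cases (25.6%), against 32.2% of the 12963 such genes with any window.

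Total counts ran from 10.9 M to 41.6 M per library (M, 1e6 counts), with a median of 25.9 M, and CPM here means TMM-scaled counts per M. Lgr5 stood at 247.2 to 345.2 CPM in GFP+ and 48.33 to 89.72 CPM in GFP- libraries over both genotypes. The libraries labelled AKVPSL did not have less Smad4. In GFP+ they had more, at 222.2 to 283.1 CPM against 148.9 to 156.7 in AKVPL. In GFP- the ranges overlapped, at 150.1 to 210.6 CPM against 126.4 to 159.1. These counts therefore do not show the loss of Smad4 that the letter S is read as. Counts per gene do not resolve exons, so a change in part of the gene could pass unseen. Mitochondrial genes took 1.994% to 7.002% of counts. The summed CPM of 19 leukocyte markers ran from 561.9 to 1491 in AKVPL GFP+, 4586 to 8243 in AKVPL GFP-, 126.5 to 432.9 in AKVPSL GFP+ and 994.0 to 4430 in AKVPSL GFP-. The corresponding sums of 16 fibroblast markers were 733.5 to 1478, 5700 to 12410, 285.4 to 1311 and 2329 to 3645 CPM. GFP- libraries, those of AKVPL above all, thus held more RNA of these marker genes of cells that are not epithelial. Epithelial identity genes (24, led by Epcam and keratins) summed to 11870 to 14410 CPM in AKVPL GFP- and to 14010 to 17600 CPM in the other 3 groups. In these bulk samples, fewer cells of a type and less RNA per cell cannot be told apart.

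**Figure D1:**
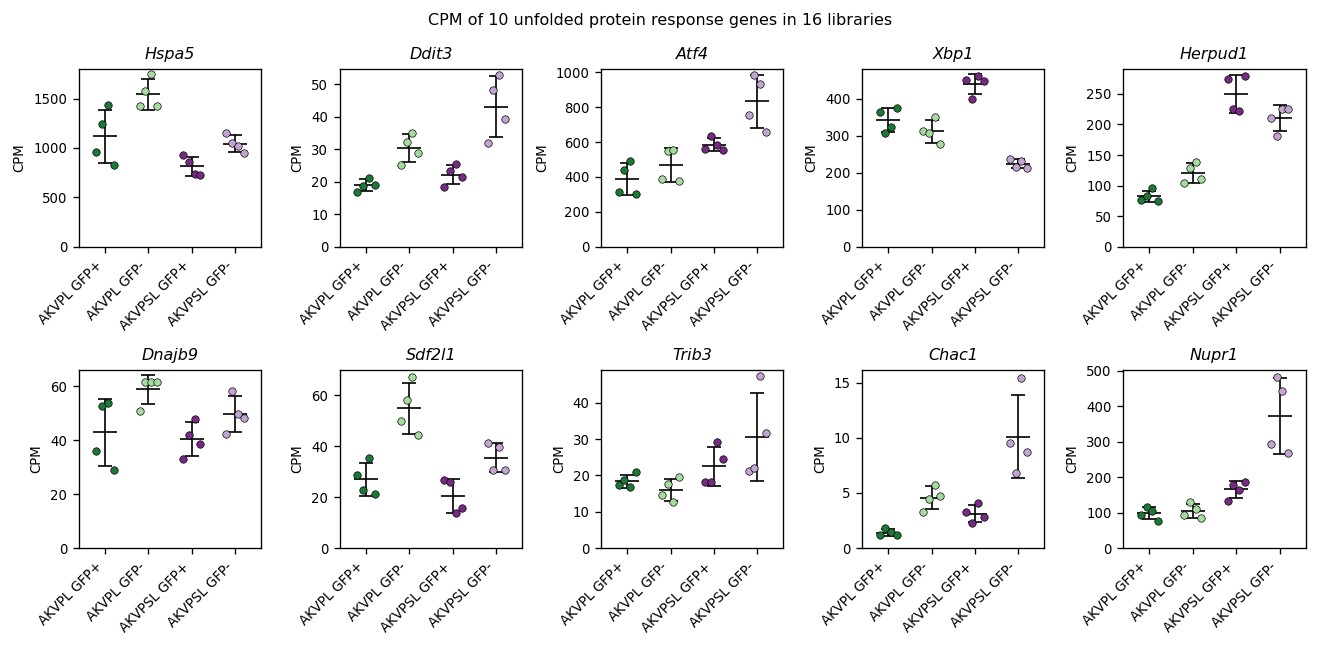
CPM (TMM-scaled; linear axes from 0) of the 10 genes in each of the 4 libraries per group, with the bar at the mean and whiskers of 1 SD. Points of a group run from replicate 1 at the left to 4. Nupr1 stood at 266.9 to 481.6 CPM in AKVPSL GFP-, above the other 12 libraries, and Xbp1 at 213.0 to 238.3 CPM in the same group, below the other 12 libraries.

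Atf4 encodes the transcription factor that carries the signal of phosphorylated eIF2 alpha (Gene ID 11911, GRCm38 chromosome 15, 80255184 to 80257545). It stood at 314.3, 440.2, 490.7 and 304.0 CPM in AKVPL GFP+ (replicates 1 to 4) and at 386.7, 546.3, 555.7 and 378.3 CPM in AKVPL GFP-. In AKVPSL the values were 562.2, 635.6, 583.1 and 553.5 CPM in GFP+ and 755.6, 984.7, 930.0 and 659.1 CPM in GFP-. All AKVPSL libraries lay above all AKVPL libraries of the same sort. The log2 fold change between the genotypes was 0.59 ± 0.17 (SE) in GFP+ (edgeR adjusted p = 0.00683) and 0.83 ± 0.17 in GFP- cells (edgeR adjusted p = 0.00036). The 697 other tested genes of chromosome 15 had a median genotype difference of 0.35 in each sort, and the part of that chromosome-wide difference in the Atf4 values was not tested.
GFP+ libraries were lower than GFP- libraries by 0.51 ± 0.17 in AKVPSL (edgeR adjusted p = 0.019), without overlap. That call ended without AKVPSL GFP- replicate 2 (-0.42) or 3 (-0.45). In AKVPL the groups overlapped and the value was -0.27 ± 0.17 (edgeR adjusted p = 0.217). Libraries of the same number deviated together in AKVPL, and in all 4 of its numbered pairs the GFP+ library was the lower one. With the replicate number as a block within genotype the AKVPL value was -0.28 and passed the threshold (edgeR adjusted p = 0.0202).

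Ddit3 encodes CHOP, the factor that ATF4 induces and that promotes cell death under lasting stress (Gene ID 13198, chromosome 10, 127290793 to 127296291). Its level was low: 17.01, 18.79, 21.24 and 19.06 CPM in AKVPL GFP+, and 25.14, 32.2, 35.17 and 28.95 CPM in AKVPL GFP-. AKVPSL libraries read 18.4, 23.3, 25.62 and 21.61 CPM in GFP+ and 31.88, 48.22, 52.98 and 39.22 CPM in GFP-. In both genotypes every GFP- library lay above every GFP+ library. GFP+ cells were lower by 0.68 ± 0.15 log2 units in AKVPL (edgeR adjusted p = 0.00175) and by 0.95 ± 0.15 in AKVPSL (edgeR adjusted p = 7.74e-05). Between genotypes Ddit3 was 0.50 ± 0.15 higher in AKVPSL GFP- cells (edgeR adjusted p = 0.00696), with overlapping libraries, and this call ended when libraries were scaled on the epithelial identity genes (0.13, epithelial scaling). In GFP+ cells the difference was 0.22 ± 0.15 (edgeR adjusted p = 0.219). Ddit3 shares 77 bases with Mbd6 and 71 with Mars1, and whether counting used the strand is not stated in the sources used here.

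Xbp1 encodes the factor that IRE1 activates by splicing (Gene ID 22433, chromosome 11, 5520641 to 5525993). AKVPL libraries were close to each other, at 363.8, 308.1, 323.7 and 376.0 CPM in GFP+ and 312.6, 307.5, 351.0 and 276.9 CPM in GFP-. AKVPSL GFP+ libraries stood at 452.1, 401.0, 463.0 and 448.6 CPM, and AKVPSL GFP- libraries at 238.3, 217.0, 232.4 and 213.0 CPM. The AKVPSL sorts therefore bracketed all 8 AKVPL libraries. GFP+ exceeded GFP- by 0.97 ± 0.09 log2 units in AKVPSL (edgeR adjusted p = 7.75e-07), against 0.14 ± 0.09 in AKVPL (edgeR adjusted p = 0.254, and -0.23 with epithelial scaling). The difference of these sort effects was 0.83 ± 0.13 (edgeR adjusted p = 0.000337). Accordingly the genotype difference had opposite signs in the sorts: 0.36 ± 0.09 in GFP+ (edgeR adjusted p = 0.00274) and -0.47 ± 0.09 in GFP- cells (edgeR adjusted p = 0.000238).
The 15 secretory epithelial markers summed to 1126 to 1597 CPM in AKVPSL GFP+, 382.4 to 469.6 in AKVPSL GFP-, 884.9 to 909.9 in AKVPL GFP+ and 459.7 to 550.1 in AKVPL GFP-. They moved with Xbp1 in AKVPSL, 11 of 14 tested being higher in GFP+ and 0 lower (all genes 22.4% and 24.6%). In AKVPL, where Xbp1 was not called, 6 of 14 were higher and 0 lower (all genes 22.6% and 16.5%). The part of these markers in the Xbp1 result was not tested. The 11 plasma cell and B cell markers summed to 992.2 to 1269 CPM in AKVPL GFP+, 858.8 to 949.4 in AKVPL GFP-, 969.5 to 1200 in AKVPSL GFP+ and 749.8 to 1261 in AKVPSL GFP-. Among them, the defining genes Jchain and Mzb1 reached at most 0.4831 and 0.3987 CPM in any library. Other genes of the list thus made up nearly all of these sums, and only 6 of the 11 passed the filter on low counts. The part of plasma and B cells in the Xbp1 result was not tested.

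Hspa5 encodes BiP, the main HSP70 chaperone of the ER lumen, which also holds the sensors inactive (Gene ID 14828, chromosome 2, 34772090 to 34776529). AKVPL GFP+ libraries stood at 963.7, 1245, 1431 and 831.0 CPM and AKVPL GFP- libraries at 1420, 1572, 1749 and 1426 CPM. AKVPSL libraries were lower, at 927.7, 860.6, 741.2 and 723.6 CPM in GFP+ and 1156, 1048, 1023 and 947.5 CPM in GFP-. The genotypes did not overlap in GFP- cells and overlapped in GFP+ cells, where AKVPL replicate 4 was low. That library also had the highest share of mitochondrial counts (7.002%), whose part in the result was not tested.
Against AKVPL, Hspa5 fell by 0.56 ± 0.14 log2 units in AKVPSL GFP- cells (edgeR adjusted p = 0.00223) and by 0.46 ± 0.14 in the GFP+ sort (edgeR adjusted p = 0.0113). The call in GFP+ ended when only these groups were fitted (-0.41) or without AKVPL GFP+ replicate 3 (-0.32). The 1304 other tested genes of chromosome 2 had medians of -0.27 in GFP+ and -0.25 in GFP-, and their part in the Hspa5 values was not tested. Between sorts GFP+ was lower by 0.46 ± 0.14 in AKVPL (edgeR adjusted p = 0.0154) and by 0.36 ± 0.14 in AKVPSL (edgeR adjusted p = 0.046), in 4 of 4 numbered pairs of each genotype. In AKVPL the sort call ended without GFP+ replicate 1 (-0.41), GFP+ replicate 4 (-0.35) or GFP- replicate 3 (-0.40). In AKVPSL it ended without any 1 of GFP+ replicates 3 and 4 and GFP- replicates 1, 2 and 3 (-0.37 to -0.33), and on the deposited RPKM (-0.37). Hspa5 shares 1921 bases with Rabepk in the annotation.

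Sdf2l1 and Dnajb9 encode ER proteins of the same chaperone system: SDF2L1 sits in BiP complexes, and DNAJB9 (ERdj4) is a BiP co-chaperone that also dampens IRE1. Sdf2l1 (Gene ID 64136, chromosome 16, 17130138 to 17132383) read 28.76, 22.93, 35.38 and 21.05 CPM in AKVPL GFP+ and 49.86, 58.29, 67.25 and 44.44 CPM in AKVPL GFP-. In AKVPSL it read 26.57, 25.81, 13.56 and 15.57 CPM in GFP+ and 41.22, 30.62, 39.6 and 30.76 CPM in GFP-. The sorts did not overlap in either genotype. GFP+ was lower by 1.02 ± 0.22 in AKVPL (edgeR adjusted p = 0.00143) and by 0.80 ± 0.22 in AKVPSL (edgeR adjusted p = 0.00651). In GFP- cells AKVPSL was lower by 0.63 ± 0.22 (edgeR adjusted p = 0.0181). That genotype call ended when AKVPL GFP- replicate 3 was left out (-0.52), and likewise AKVPSL GFP- replicate 2 (-0.56) or 4 (-0.57). In GFP+ cells the genotype value was -0.41 ± 0.22 (edgeR adjusted p = 0.128), and it passed the threshold without AKVPSL GFP+ replicate 1 (-0.59).
Dnajb9 (Gene ID 27362, chromosome 12, 44205897 to 44210068) moved least. It stood at 36.06, 52.57, 53.96 and 29.08 CPM in AKVPL GFP+, 50.88, 61.63, 61.74 and 61.63 CPM in AKVPL GFP-, 33.21, 42.04, 48.04 and 38.74 CPM in AKVPSL GFP+ and 42.23, 58.29, 49.88 and 48.37 CPM in AKVPSL GFP-. All 4 groups overlapped their neighbours. Its 1 call, 0.46 ± 0.17 lower in GFP+ than in GFP- of AKVPL (edgeR adjusted p = 0.0387), ended without any 1 of GFP+ replicates 1 and 4 and GFP- replicates 2, 3 and 4 (-0.43 to -0.31). Between genotypes its values were -0.09 ± 0.17 in GFP+ and -0.25 ± 0.17 in GFP- cells. With epithelial scaling the GFP- value was -0.63 and passed the threshold (edgeR adjusted p = 0.00246).

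Herpud1 encodes an ER membrane protein that assembles the degradation complex around the ligase HRD1 (Gene ID 64209, chromosome 8, 94386429 to 94395371). It stood at 77.06, 82.91, 95.39 and 74.4 CPM in AKVPL GFP+ and at 104.9, 129.4, 138.3 and 110.1 CPM in AKVPL GFP-. AKVPSL libraries held 274.3, 225.8, 221.3 and 278.5 CPM in GFP+ and 210.2, 181.7, 225.8 and 225.6 CPM in GFP-. Every AKVPSL library lay above every AKVPL library of either sort. The genotype difference was 1.60 ± 0.12 log2 units in GFP+ (3.03-fold, edgeR adjusted p = 1.94e-09) and 0.80 ± 0.12 in GFP- cells (1.75-fold, edgeR adjusted p = 8.79e-06). GFP+ was below GFP- by 0.55 ± 0.12 in AKVPL (edgeR adjusted p = 0.00105), without overlap. In AKVPSL the value was 0.25 ± 0.11 in the other direction (edgeR adjusted p = 0.0865), higher in 3 of 4 numbered pairs, and with the replicate number as a block within genotype it was 0.24 and passed the threshold (edgeR adjusted p = 0.029). The difference of sort effects was 0.80 ± 0.16 (edgeR adjusted p = 0.00263). Herpud1 was thus higher in AKVPSL in both sorts, as Chac1 was and Hspa5 was not. In AKVPL it was lower in GFP+, as were Hspa5 and Chac1. Unlike these, it was not lower in GFP+ of AKVPSL.

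Chac1, Nupr1 and Trib3 lie downstream of ATF4 and CHOP. Chac1 encodes an enzyme that breaks down glutathione (Gene ID 69065, chromosome 2, 119351242 to 119354326), and it rested on few reads, 21 to 348 counts per library. It read 1.149, 1.792, 1.445 and 1.163 CPM in AKVPL GFP+, 3.222, 4.484, 5.749 and 4.741 CPM in AKVPL GFP-, 3.219, 2.243, 4.097 and 2.835 CPM in AKVPSL GFP+ and 9.534, 6.773, 15.42 and 8.667 CPM in AKVPSL GFP-. Neither sorts within a genotype nor genotypes within a sort overlapped. GFP+ was lower by 1.70 ± 0.28 in AKVPL (3.24-fold, edgeR adjusted p = 0.000121) and by 1.70 ± 0.26 in AKVPSL (3.25-fold, edgeR adjusted p = 6.25e-05). AKVPSL was higher by 1.15 ± 0.28 in GFP+ (edgeR adjusted p = 0.0018) and by 1.16 ± 0.26 in GFP- cells (edgeR adjusted p = 0.000802). Other tested genes of its chromosome had the medians of -0.27 and -0.25 given for Hspa5.

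Nupr1 encodes a small stress-induced chromatin protein (Gene ID 56312, chromosome 7, 126623246 to 126625470). In AKVPL the sorts were alike in range, with 94.07, 116.7, 105.2 and 77.06 CPM in GFP+ and 94.37, 130.0, 109.1 and 84.83 CPM in GFP-. AKVPSL libraries stood at 132.7, 177.1, 164.5 and 186.7 CPM in GFP+ and at 292.0, 481.6, 442.5 and 266.9 CPM in GFP-. The genotype difference was 1.82 ± 0.19 log2 units in GFP- (3.54-fold, edgeR adjusted p = 4.7e-07) and 0.75 ± 0.19 in GFP+ cells (1.68-fold, edgeR adjusted p = 0.00313). All AKVPSL libraries lay above all AKVPL libraries. GFP+ was lower than GFP- by 1.17 ± 0.19 in AKVPSL (edgeR adjusted p = 0.000143), and the AKVPL value was -0.09 ± 0.19 (edgeR adjusted p = 0.734), or -0.47 with epithelial scaling (edgeR adjusted p = 0.0479). The difference of sort effects was -1.08 ± 0.27 (edgeR adjusted p = 0.0102), and -0.68 with epithelial scaling (edgeR adjusted p = 0.0493). Leukocyte and fibroblast marker sums were lower in AKVPSL GFP- than in AKVPL GFP-, and their part in the Nupr1 result was not tested. Nupr1 shares 2225 bases, its whole annotated span, with the long non-coding RNA Gm39087. Whether counting used the strand is not stated in the sources used here, and the part of Gm39087 in the Nupr1 values was not tested.

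Trib3 encodes a pseudokinase that CHOP and ATF4 induce and that restrains ATF4 in turn (Gene ID 228775, chromosome 2, 152337425 to 152344060). It read 17.33, 18.7, 16.87 and 20.83 CPM in AKVPL GFP+ and 14.52, 17.53, 12.71 and 19.56 CPM in AKVPL GFP-. AKVPSL values were 18.15, 18.08, 29.25 and 24.49 CPM in GFP+ and 21.33, 21.99, 47.36 and 31.77 CPM in GFP-, with replicate 3 the highest in each sort. Only the genotypes in GFP- cells did not overlap, with AKVPSL higher by 0.93 ± 0.23 (edgeR adjusted p = 0.00184), a call that ended with epithelial scaling (0.55). The sort value was 0.20 ± 0.23 in AKVPL, higher in GFP+ in 4 of 4 numbered pairs, and -0.44 ± 0.22 in AKVPSL, lower in 4 of 4 pairs. Neither passed the threshold (edgeR adjusted p = 0.513 and 0.112). With the replicate number as a block within genotype the AKVPSL value was -0.40 (edgeR adjusted p = 0.00722) and the difference of sort effects -0.61 (edgeR adjusted p = 0.0116, against 0.159 without the block). The AKVPSL sort value also passed the threshold without AKVPSL GFP+ replicate 3 (-0.62) or AKVPSL GFP- replicate 1 (-0.61).

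**Figure D2:**
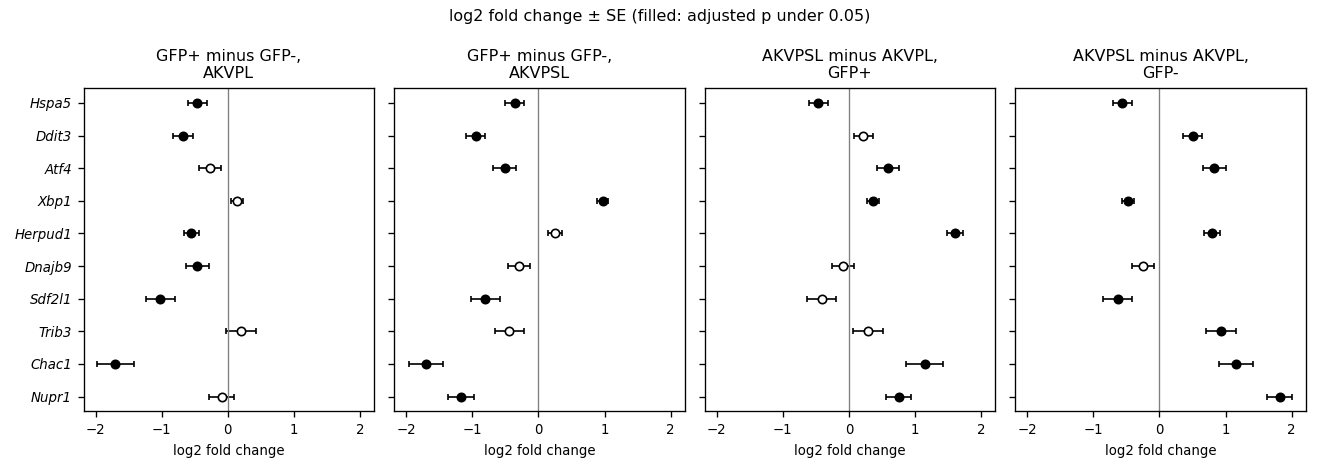
log2 fold change of each gene (x axis, ± SE from the edgeR fit) in the 4 comparisons, with filled points past an adjusted p of 0.05. Chac1 sat at -1.70 in both sort comparisons, and Hspa5 was negative in all 4 panels, from -0.56 to -0.36.

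Set against all tested genes, the sort in AKVPL called 0 of the 10 genes higher and 6 lower, where 22.6% of genes were called higher and 16.5% lower. In AKVPSL, 1 was higher (Xbp1) and 6 lower, beside 22.4% and 24.6% of all genes. With the replicate number as a block within genotype these counts were 0 and 7 in AKVPL and 2 and 7 in AKVPSL. Between genotypes, 5 were higher and 1 lower in GFP+ cells, beside 24.9% and 28.1% of all genes. In GFP- cells 6 were higher and 3 lower, beside 32% and 30.7%. The difference of sort effects called 2 higher (Xbp1 and Herpud1) and 1 lower (Nupr1), beside 7.02% and 13.7%. The median over the 10 genes was -0.46 for the sort in AKVPL (all genes 0.14), -0.48 in AKVPSL (-0.01), 0.33 for the genotype in GFP+ (-0.05) and 0.65 in GFP- cells (0.00). Ddit3, Hspa5, Sdf2l1 and Chac1, lower in GFP+ in both genotypes, come from both branches of the response. Fibroblast, leukocyte, mast cell and endothelial markers were higher in the GFP- sorts as well. In AKVPL 51 of the 56 tested markers of these types were called lower in GFP+, and in AKVPSL 51 of 56, and their part in the sort results was not tested.
The scaling moves these splits. Epithelial scaling shifted the median of all genes by -0.37 for the sort in AKVPL, -0.37 for the genotype in GFP- cells and 0.39 for the interaction. The share of calls that were higher fell from 57.8% to 10.3%, and from 51.1% to 27.2%, in the first and second of these, and went from 33.8% to 88.0% in the third. DESeq2 size factors gave 42.1% for the sort in AKVPL and 49.2% for the difference, and library totals 44.9% and 44.2%. Under epithelial scaling the 10 genes gave 0 higher and 8 lower for the sort in AKVPL, and 4 higher and 4 lower for the genotype in GFP- cells.

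Levels between genes were compared on the deposited RPKM, which is per gene length. Hspa5 was the most abundant of the 10 in AKVPL, at 389.3 ± 97 RPKM (SD, n = 4) in GFP+ and 574.2 ± 57.5 in GFP- cells, above the range of Atf4 in both. In AKVPSL GFP+, Atf4 (306.9 ± 19.8 RPKM), Hspa5 (282.6 ± 33.5) and Nupr1 (240.0 ± 34.5) overlapped each with the next. In AKVPSL GFP-, Nupr1 led at 540.2 ± 156.7 RPKM, overlapping Atf4 (439.1 ± 80.4), which overlapped Hspa5 (363.8 ± 30.6). By its mean Xbp1 was the fourth in every group, though it overlapped the third, Nupr1, in both AKVPL groups. It stood apart from Herpud1 in 3 groups and overlapped it in AKVPSL GFP- (91.4 ± 5.0 and 85.0 ± 8.2 RPKM). Chac1 was the lowest in every group and apart from the next gene, at 0.805 ± 0.178 RPKM in AKVPL GFP+ up to 5.87 ± 2.16 in AKVPSL GFP-. By their means Ddit3 and Trib3 ranked the eighth and the ninth in each group, overlapping in 3 of the 4.

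The wider pathway was followed with 5 lists that do not hold the 10 genes. Of 37 ATF4 and CHOP targets, 22 were higher and 1 lower in AKVPSL GFP+ cells than in AKVPL GFP+ cells, and 26 were higher and 3 lower in GFP- cells. All genes were called higher in 24.9% and lower in 28.1% of cases in GFP+, and in 32% and 30.7% in GFP- cells. Epithelial scaling changed the GFP- counts to 21 higher and 6 lower, and the deposited RPKM gave 5 lower. The median of the list was 0.50 and 0.74, against -0.05 and 0.00 over all genes. The examples with the smallest adjusted p were Slc7a5, a leucine transporter subunit (2.91 ± 0.11 in GFP+ and 2.03 ± 0.10 in GFP-), the serine synthesis enzyme Psat1 (2.16 ± 0.15 and 2.61 ± 0.16), and the tRNA synthetases Wars (1.68 ± 0.09 and 1.99 ± 0.10) and Gars (1.23 ± 0.08 and 1.54 ± 0.09). Mean levels rose from 60.95 to 457.3 CPM for Slc7a5 and from 35.85 to 159.8 CPM for Psat1 in GFP+ cells. Atf4 itself was higher in the same comparisons. The sort in AKVPSL gave 6 higher and 17 lower (median -0.25, all genes 22.4% and 24.6%), among them Cars (-1.14 ± 0.11), the translation repressor Eif4ebp1 (-1.04 ± 0.14), the folate enzyme Mthfd2 (-1.23 ± 0.18) and the factor Atf5 (-0.87 ± 0.14). In the sort in AKVPL the counts were 7 and 12 (all genes 22.6% and 16.5%). With epithelial scaling they were 2 and 20, and with DESeq2 size factors, or without any 1 of GFP+ replicates 1 and 2 and GFP- replicate 1, the number higher was 4. For the sort in AKVPSL the number lower was 11 without AKVPSL GFP- replicate 3.

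Chaperones and folding enzymes of the ER were called between genotypes about as often as all genes: 7 of 26 were higher and 8 lower in GFP+ cells (all genes 24.9% and 28.1%), and 7 and 8 in GFP- cells (32% and 30.7%), with medians of 0.05 and -0.01. The disulfide oxidase Ero1b was lower by 3.54 ± 0.19 in GFP+ (2.626 against 30.6 CPM) and by 4.44 ± 0.19 in GFP- cells. The BiP nucleotide exchange factor Sil1 (1.15 ± 0.09 and 1.14 ± 0.09), the prolyl isomerase Fkbp11 (1.92 ± 0.16 and 1.98 ± 0.17) and the reductase Dnajc10 (1.06 ± 0.09 and 1.08 ± 0.09) were higher. Also called lower in both sorts, as Hspa5 was, were Hsp90b1 (-0.28 and -0.44), Calr (-0.33 and -0.53) and Hyou1 (-0.35 and -0.81). So were Uggt1 (-0.45 and -0.59) and Txndc5 (-0.26 and -0.36). Fkbp2 (0.47 and 1.09) and Erp29 (0.43 and 0.64) were called higher in both. Epithelial scaling changed the GFP- counts to 4 higher and 15 lower. In GFP+ cells 5 were lower without AKVPL GFP+ replicate 3, and 4 without the filter on low counts. Between sorts this list was lower in GFP+ in 10 of 26 and higher in 1 in AKVPL (all genes 16.5% and 22.6%), and lower in 11 and higher in 4 in AKVPSL (24.6% and 22.4%). Manf, a secreted ER stress protein, was lower by 0.85 ± 0.17 in AKVPSL GFP+. The AKVPL count of 10 was 6 when GFP+ replicate 4 was left out, and also when GFP- replicate 3 was, and 19 with epithelial scaling. The AKVPSL count of 4 was 2 without any 1 of GFP+ replicates 2, 3 and 4 and GFP- replicate 2.

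**Figure D3:**
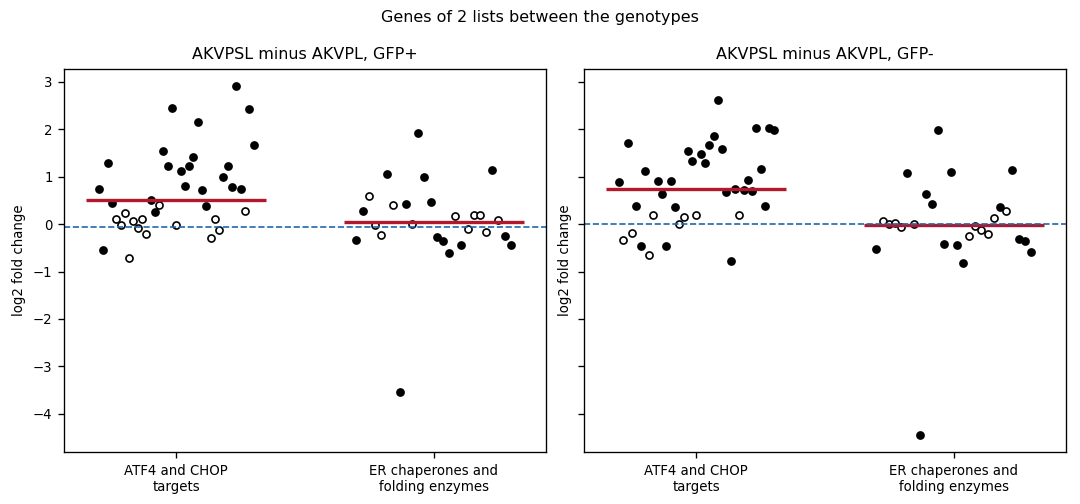
log2 fold change between AKVPSL and AKVPL (y axis) of the 37 ATF4 and CHOP targets and the 26 ER chaperones and folding enzymes, in GFP+ (left) and GFP- cells (right); each point is a gene, filled past an adjusted p of 0.05, in alphabetical order along x. Red bars are list medians (0.50 and 0.05 at the left, 0.74 and -0.01 at the right), and the dashed line is the median of all genes.

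The shares of all genes for the genotype counts that follow are again 24.9% higher and 28.1% lower in GFP+, and 32% and 30.7% in GFP- cells. Degradation genes gave 9 higher and 2 lower of 22 in GFP+, and 10 and 4 in GFP- cells, between genotypes. Sel1l, the scaffold of the HRD1 complex that Herpud1 joins, was higher in AKVPSL by 2.06 ± 0.10 in GFP+ and by 0.99 ± 0.09 in GFP- cells, and its sort effects differed between genotypes by 1.07 ± 0.13 (edgeR adjusted p = 3.1e-05), the sign seen for Herpud1. Edem1, a lectin that hands glycoproteins to degradation and a known XBP1 target, differed likewise by 0.91 ± 0.14 (edgeR adjusted p = 0.000264). Derl3 went the other way, from 6.545 to 0.476 CPM in GFP- cells (-3.74 ± 0.38).
Translocation and export genes were higher in 8 of 27 and lower in 2 in GFP+, and higher in 16 and lower in 3 in GFP- cells, led by the signal peptidase subunit Sec11c (0.77 ± 0.12 and 1.81 ± 0.12). Of 20 sensors and proximal factors, 5 were higher and 4 lower in GFP+, and 5 higher and 9 lower in GFP- cells. Eif2s1, the eIF2 alpha subunit itself, was higher (0.70 ± 0.11 and 1.34 ± 0.11), as was the haem-sensing kinase Eif2ak1 (0.72 ± 0.07 and 0.71 ± 0.07), whereas the RNA-sensing kinase Eif2ak2 was lower (-1.38 ± 0.13 and -1.19 ± 0.13). Chromosome 5, which holds Eif2ak1, had medians of 0.48 and 0.50 over its 1059 other tested genes. Chromosome 12, which holds Eif2s1, Sel1l and Wars, had medians of 0.3 and 0.34 over 589 other tested genes. The part of these chromosome-wide differences in the values was not tested. For the sort in AKVPSL 12 sensors and factors were higher in GFP+ and 3 lower (all genes 22.4% and 24.6%), with the epithelial IRE1 paralog Ern2 at 1.12 ± 0.18. For the sort in AKVPL 7 were higher and 1 lower (all genes 22.6% and 16.5%), with Ern2 at 1.12 ± 0.19. The sort effects of Ern1 (1.41 ± 0.34, edgeR adjusted p = 0.00993) and Atf6 (0.61 ± 0.16, edgeR adjusted p = 0.0125) differed between genotypes in the direction of Xbp1.
Heat shock genes, the cytosolic counterpart, gave 4 higher and 3 lower of 15 in GFP+ and 5 and 4 in GFP- cells between genotypes. Immediate early genes, which dissociation and sorting can raise, gave 3 higher and 4 lower of 14 in GFP+ and 1 and 7 in GFP- cells.

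**Figure D4:**
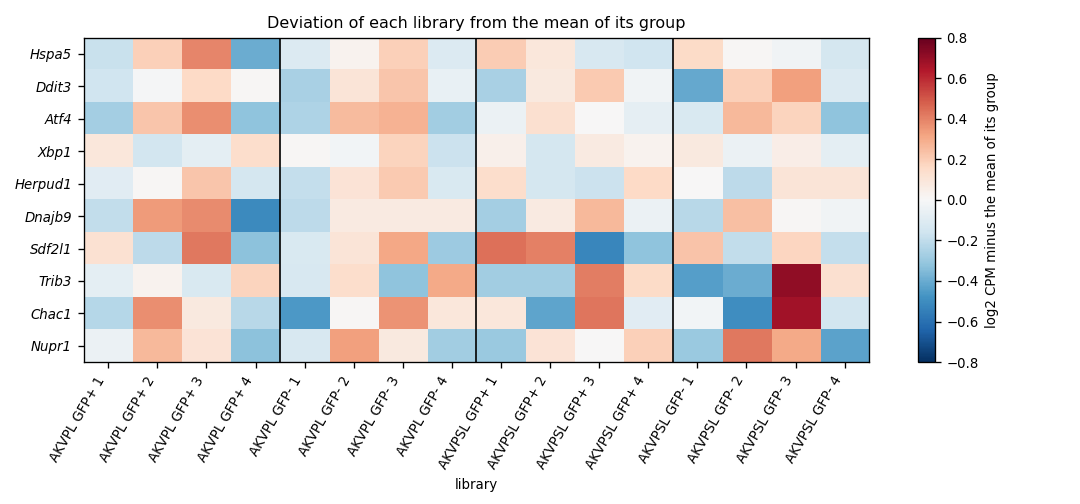
Deviation of the log2 CPM of each gene (rows) in each library (columns, grouped by the vertical lines) from the mean of its own group, on a colour scale from -0.8 (blue) to 0.8 (red). Trib3 and Chac1 were highest in AKVPSL GFP- replicate 3, and Sdf2l1 was low in AKVPSL GFP+ replicate 3.

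Correlations of deviations from the group means over the 16 libraries are descriptions, and the points share library, cell mixture and depth. Atf4 and Nupr1 had a Pearson r of 0.80 (Spearman rho 0.78, and r = 0.87 without the 2 farthest libraries), Hspa5 and Atf4 0.73 (0.71, 0.60), Atf4 and Dnajb9 0.72 (0.72, 0.67) and Hspa5 and Sdf2l1 0.70 (0.69, 0.62). Xbp1 and Dnajb9 were opposed at -0.54 (-0.44, -0.47), and Hspa5 and Ddit3 had an r of 0.08. Among all genes of sufficient level, the closest to Trib3 were Nyap1, Vegfa and Car9 (r = 0.95 each), to Atf4 Pnrc1 (0.96), Eif1 (0.95) and Ptp4a1 (0.93), and to Dnajb9 1810013L24Rik (0.97), Rnd3 (0.94) and Pmaip1 (0.93). Hspa5 was closest to Ets2, Map2k3 and Krt23 (0.94, 0.94 and 0.93), and Sdf2l1 to Tspan13, Creld2 and Cacybp (0.92, 0.91 and 0.90). For Nupr1 they were Lmbr1l, Safb2 and Safb (0.93, 0.90 and 0.89), for Ddit3 Phf1, Cacnb1 and Snhg12 (0.88, 0.88 and 0.87) and for Herpud1 Alas1, Tesk1 and Castor1 (0.87, 0.87 and 0.86). Xbp1 (Ccdc97, 0.86) and Chac1 (Brf2, 0.85) had less close partners.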

How the data were processed

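The data are RNA sequencing of 16 libraries of cells sorted by flow cytometry. The submitters' processing notes name GSNAP and GRCm38; the sources used here give neither versions nor a strand setting. Per the file headers, the authors deposited for each gene a count of uniquely aligned reads and an RPKM value adjusted by a size factor. Symbols and positions came from a RefSeq table of GRCm38.p6, which matched 85.0% of 36528 IDs.

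Counts were fitted with edgeR 4.0.16 (R 4.3.3): filterByExpr, TMM (factors 0.936 to 1.086), 1 mean per group over all 16 libraries, robust quasi-likelihood with 12 residual degrees of freedom, two-sided F tests, Benjamini-Hochberg over 18072 genes, threshold 0.05. SE is the absolute log2 estimate divided by the root of F. The contrasts were GFP+ minus GFP- within genotype, AKVPSL minus AKVPL within sort, and their interaction. The test was run on simulated data first. Alternatives were DESeq2 1.42.0 (size factors, Wald test), library totals, scaling on epithelial genes, no filter, limma 3.58.1 on log2(RPKM + 1), only the groups compared, a block for the replicate number, and each library left out.

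Same-numbered GFP+ and GFP- libraries deviated together in AKVPL (r = 0.131 to 0.256) and AKVPSL (0.103 to 0.366). Numbers were therefore taken as pairs within a genotype for pair counts and the block within genotype, but not in the main fit. In AKVPSL some libraries of different number agreed as closely. There r was 0.326 for GFP- replicate 3 with GFP+ replicate 4, and 0.38 for GFP- replicate 4 with GFP+ replicate 3. The numbers thus do not single out pairs in AKVPSL, and its block values for Herpud1 and Trib3 rest on them. Across genotypes the r of same-numbered libraries ran from -0.172 to 0.279, so numbers were not taken as pairs between genotypes. The members and lists were chosen with earlier results of these data known. The named genes are the 10 members and, per list and comparison, up to 4 called genes with the smallest adjusted p, of which a part is printed, and 1 gene is not reported here. For likeness they are the 3 genes most correlated with a member, among those whose log2 CPM averages 1 or more. Markers were limited to sums and a few defining genes. Genes beyond this rule, named after their values were seen, are Lgr5 and Smad4 as label checks, and the genes that overlap or lie near members. So are Hsp90b1, Calr, Hyou1, Uggt1, Txndc5, Fkbp2 and Erp29 in the comparison of genotypes.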

Additional observations from a re-analysis of the deposited data

Results flagged for a closer look

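Dnajb9 in AKVPL GFP- replicate 1 (50.88 CPM) lay far below the other libraries of its group, which stood at 61.63 to 61.74 CPM. Its gap took 0.99 of the group's range, above Dixon's critical value for 4 samples. It was the only such library among the 40 sets of 4 libraries tested (10 genes in 4 groups), where chance alone gives about 1 in 20.

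For 3 of the 10 genes the GFP+ against GFP- difference was not the same in the genotypes by the interaction test (AKVPSL minus AKVPL), which called 7.02% of all genes higher and 13.7% lower. The values were 0.83 for Xbp1 (edgeR adjusted p = 0.000337) and 0.80 for Herpud1 (adjusted p = 0.00263), and -1.08 for Nupr1 (adjusted p = 0.0102). Xbp1 was higher in GFP+ in 4 of 4 numbered pairs in AKVPSL and in 3 of 4 in AKVPL.

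The interaction test also called some genes of the 5 wider lists, beside 7.02% higher and 13.7% lower of all genes. It called 2 higher and 1 lower of 20 sensors and proximal factors, and 2 and 2 of 26 chaperones and folding enzymes. Of 22 degradation genes 3 were higher and 1 lower, and of 27 translocation and export genes 0 and 1. The 37 ATF4 and CHOP targets gave 1 higher and 6 lower. Most genes of each list were not called. Sel1l (1.07) and Edem1 (0.91) of the degradation machinery, Ern1 (1.41) and Atf6 (0.61) among the sensors, and Fkbp14 (1.41) and Ero1b (0.90) among folding enzymes had a more positive sort effect in AKVPSL, as did the transporter Slc7a5 (0.87). The sort effect was more negative in AKVPSL for Sec11c (-1.04), Cars (-0.89), Eif2s1 (-0.64), Shmt2 (-0.64), Fkbp2 (-0.63), Nars (-0.49), Vcp (-0.48) and Erp44 (-0.42). With epithelial scaling Eif2s1 (-0.25), Fkbp2 (-0.24), Shmt2 (-0.25), Nars (-0.09), Vcp (-0.08) and Erp44 (-0.03) no longer passed the threshold. Erp44 also missed it under 5 other settings and without 12 of the 16 libraries in turn.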

How the results depend on the processing

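Over 900 recomputed values of the 10 genes (each comparison under each alternative and each library left out), 845 kept direction and side of the threshold, 23 lost and 12 gained a call, and 20 changed sign. None of the calls of the 10 changed sign. The causes were not tested. The sign changes, all of uncalled values, were with epithelial scaling Xbp1 (-0.23) and Trib3 (-0.18) for the sort in AKVPL and Ddit3 (0.11), Atf4 (0.15) and Chac1 (0.39) for the difference of sort effects. The Chac1 difference, -0.01, was also 0.09 with DESeq2 size factors, 0.06 with library totals, 0.06 without the filter and 0.09 by the DESeq2 Wald test. With a library left out it ran from -0.17 to 0.27, that of Hspa5 from -0.01 to 0.25, Nupr1 for the sort in AKVPL from -0.18 to 0.03, and Dnajb9 between genotypes in GFP+ from -0.23 to 0.04. Among other genes named by smallest adjusted p, 1 changed sign, Sec63 for the sort in AKVPL (0.22, called). It was -0.16 and uncalled with epithelial scaling.

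Counts of the 10 genes moved by over 1.5 times in these cases. Genes lower in AKVPSL GFP+ numbered 0 (in place of 1) with only the groups compared, and 0 to 2 with a library left out. With the replicate number as a block within genotype, chosen after seeing the data, 2 (in place of 1) were higher for the sort in AKVPSL and 2 (in place of 1) lower for the difference. With a single replicate block over both genotypes the sort in AKVPL gave 7 genes lower, Atf4 (-0.27) being added, and it changed no other call of the 10. Total calls in each comparison stayed within 1.5 times under every alternative run. Depth limits Chac1 most, at 21 counts in its shallowest library. Bulk counts, 4 libraries a group and an unknown number of tumours limit the rest.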
